A study of Homo sapiens with 4 samples.

Results

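The interleukins and their receptors were examined in cells of HCT116, a line established from a human colorectal carcinoma, that carried FOXD2 or an empty vector. Members were the protein-coding genes whose symbol is IL followed by a number and any further letters or digits, together with LIF, LIFR, OSM and OSMR, and there were 89 of them among the 60683 genes in the tables. The rule goes by symbol, so it also took in IL4I1, which encodes an amino acid oxidase, and left out cytokines such as CXCL8 that are named otherwise. In the FOXD2 group (2 libraries) the cells had been transduced with a pSin lentivirus carrying the full-length CDS of FOXD2, which encodes a transcription factor of the forkhead family. In the empty vector group (2 libraries) they had received pSin without an insert. Both groups were kept as stable transduced cells under puromycin, and polyA RNA was sequenced to see how transcription differs when FOXD2 is present. Nothing in the labels says that the 2 libraries of a group were grown or transduced apart, and p-values thus reflect only the spread between these samples, possibly a technical one. In bulk RNA of this kind, a change in the number of cells of a type and a change in the RNA per cell cannot be told apart.

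Interleukins are secreted signalling proteins that bind paired receptor chains, of which 1 chain usually gives specificity and another is shared among several cytokines. Receptors of the IL-1 family signal through the adaptor MYD88 and those of the IL-17 family through the adaptor encoded by TRAF3IP2, and both lead to NF-kB. Receptors of the IL-6, gamma chain and IL-10 types signal through Janus kinases and STAT factors. Colonic epithelium is known both as a source of IL-18 and as a target of IL-17, IL-22 and IL-6 type cytokines.

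Libraries held 15340166 and 14231338 counts in FOXD2 cells and 14245777 and 15535817 in empty vector cells. FOXD2 itself had 526 and 479 CPM (counts relative to the scaled size of the library) in FOXD2 cells, against 3.5 and 2.78 CPM in empty vector cells. Of 12 markers of blood and immune cells, the usual sources of many interleukins, 6 were at 0 in every library, among them the pan-leukocyte gene PTPRC and the T cell gene CD3E. The list summed to 2.18 and 0.752 CPM in FOXD2 cells and to 1.36 and 1.72 CPM in empty vector cells. Of 8 colon epithelial markers 6 passed the filter on low counts, whereas VIL1 and LGALS4 held at most 6 counts in any library. That list summed to 6430 and 6115 CPM in FOXD2 cells and to 3532 and 3658 CPM in empty vector cells, most of it from KRT8 and KRT18. KRT8, KRT18, CDH1 and EPCAM were higher in FOXD2 cells, with log2 fold changes of 0.85, 0.87, 1.09 and 0.15 (edgeR adjusted p of at most 0.021). The intestinal factor CDX2 of the same list was lower in FOXD2 cells (-0.51, edgeR adjusted p = 0.001), and KRT20 had a log2 fold change of -0.97 (adjusted p = 0.053). Of 9 fibroblast and endothelial markers 4 were at 0 in every library, and the list, mostly COL1A1, summed to 33.7 and 34.1 CPM in FOXD2 cells and to 10.2 and 11.7 CPM in empty vector cells. Markers of packaging cells summed to 98.4 and 88.4 CPM in FOXD2 cells and to 69.4 and 71.9 CPM in empty vector cells, with 2 of 5 at 0. Of these, VGF was higher (58.3 ± 6.54 CPM in FOXD2 cells and 26.1 ± 0.149 CPM in empty vector cells, SD, n = 2 each) and ZIC2 lower (24.9 ± 0.976 CPM in FOXD2 cells and 37.0 ± 1.5 CPM in empty vector cells, SD, n = 2 each). The part of the epithelial, fibroblast and packaging cell genes in the results was not tested.

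Most interleukins had too few counts to be tested, whereas about as many receptor chains were tested as not. Of the 89 members, 28 had no count in any library, among them IL6, IL33, IL2, IL4 and IL17A, and another 17 never exceeded 2 counts. A count of 0 allows up to 3 counts, which is between 0.193 and 0.215 CPM here, for counting error only. After the filter on low counts 30 members were tested, 7 of 42 ligands and antagonists, 22 of 43 receptor chains, and IL32. Of these 30, 27 would have passed the filter in either group. IL1RN and IL15 passed only through the FOXD2 libraries and IL20RB only through the empty vector libraries, a route that favours members that differ.

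In FOXD2 cells 13 of the 30 tested members were higher and 4 were lower at an edgeR adjusted p under 0.05, and their median log2 fold change was 0.32. In shares this is 43.3% higher and 13.3% lower, beside 27.2% higher and 26.4% lower (53.5% in either direction) among all 14470 genes tested, whose median was 0.008. At least 2-fold differences past the threshold were found for 7 members that were higher and 1 that was lower, beside 8.2% and 2.8% of all genes. The 7 were IL1RN, IL1RAP, IL15, IL17RB, IL17RE, IL11RA and IL17RC, and the 1 was IL20RB. Of these, IL1RN, IL15 and IL20RB entered the test through the group where each was high. The counts of 13, 4, 7 and 1 thus include members that the filter favoured for differing. With library totals in place of scaled sizes 15 members were higher and 4 lower, beside 4514 genes higher and 3104 lower in all. The CPM ranges of the groups did not overlap for 25 of the 30 members, but this held for 76.1% of all genes tested.

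**Figure D1:**
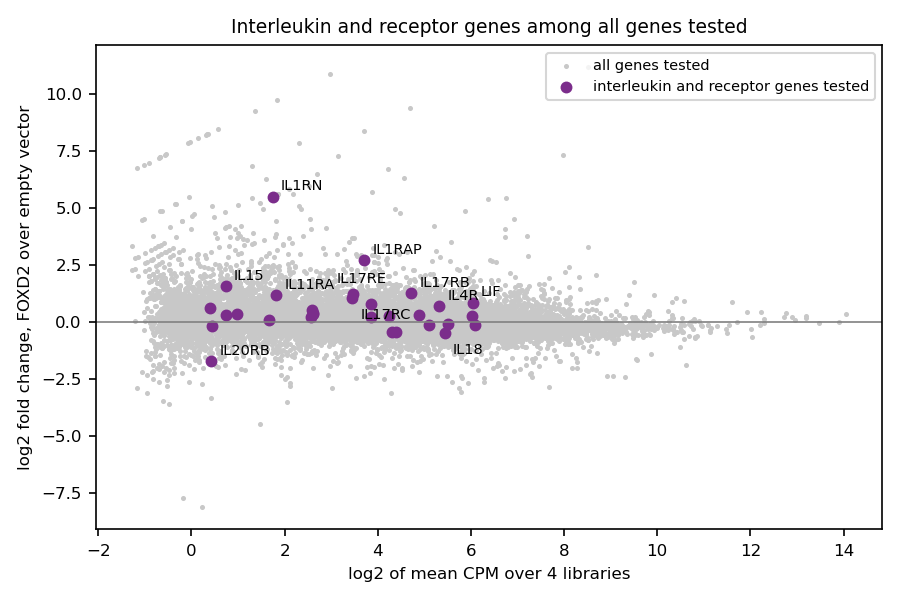
Log2 fold change of FOXD2 over empty vector (vertical axis) against the log2 of the mean CPM over the 4 libraries (horizontal axis), with all 14470 tested genes in grey and the 30 tested members in purple. IL1RN at 5.49 and IL1RAP at 2.71 lie at the upper edge of the cloud for their level, and most other members lie within it.

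The promoters of members that moved were read from RefSeq (GRCh38.p14), since genes that move together may share motifs there. The windows ran from 250 bases before to 50 bases after a gene's start, and 71 of the 89 members had at least 1 window. Stretches before a RefSeq start are shown for the members with the largest rises. That of IL1RN (chr2:113117721-113117892, plus strand) lies before a start at 113117971, inside the annotated span of the gene and outside its annotated exons. That of IL1RAP (chr3:190513835-190514050, plus strand) lies before the annotated gene. Capitals mark a match to the AP-1 motif TGANTCA, and IL1RAP held no match to any motif searched.
IL1RN: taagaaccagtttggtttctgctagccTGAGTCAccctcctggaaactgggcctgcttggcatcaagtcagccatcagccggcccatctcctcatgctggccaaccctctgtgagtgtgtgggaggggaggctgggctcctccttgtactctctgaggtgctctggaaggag
IL1RAP: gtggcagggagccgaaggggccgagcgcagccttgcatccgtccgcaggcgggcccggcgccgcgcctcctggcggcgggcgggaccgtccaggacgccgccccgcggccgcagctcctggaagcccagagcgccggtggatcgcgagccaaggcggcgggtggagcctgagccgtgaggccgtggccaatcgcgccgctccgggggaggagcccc

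The NF-kB motif, GGGNN followed directly by TTTCC and searched on both strands, was found in 3 of the 11 members called higher that had a window, which is 27.3% of them, beside 2.33% of all 27305 genes with a window. It was also in 1 of 12 members tested and not called (8.33%) and in 3 of 45 not tested (6.67%). The share of 27.3% rests on 3 genes in a set formed by its outcome. Of these, IL1RN passed the filter on low counts only through the FOXD2 libraries. The IL27RA call ended with DESeq2 and on log2 TPM, and the IL4R call held under every alternative. The 3 matches are shown with 10 bases on each side and the motif in capitals. The site of IL1RN (chr2:113127491-113127520) begins at position -97 from one RefSeq start and at position 13 from another. The sites of IL27RA (chr19:14031684-14031713) and IL4R (chr16:27313914-27313943, where the match is on the opposite strand) begin at positions -68 and -50 from the start.
IL1RN: aatgcgaggaGGGTATTTCCgcttctcgca
IL27RA: gccccagccgGGGACTTTCCgtcgcgggga
IL4R: tccgcgcccaGGAAAGCCCCgcgcggcgcg
The AP-1 motif was found in 3 of these 11 genes (27.3%) and in 4 of 12 members that were tested and not called (33.3%), beside 9.37% of all genes. The forkhead motifs TGTTTAC and TGTTTGC were in none of the 11 and in none of the 12, beside 4.19% and 4.76% of all genes. Among the 45 members not tested they were in 3 (6.67%) and 5 (11.1%). The 5 were IL1A, IL10, IL19, IL17D and IL37, and IL10 and IL19 share the same site. Of these, IL1A, IL10 and IL19 were higher in FOXD2 cells when every gene with at least 1 count was tested, as were 15.9% of all genes in that fit. IL17D and IL37 did not pass there (edgeR adjusted p = 0.85 and 0.53). The 3 with TGTTTAC were IL16, IL2 and IL2RG. IL16 and IL2RG did not pass either (0.4 and 0.64), and IL2 had no count. All of these genes had few counts, and a link of the motif to their levels was not tested. The STAT motif TTCNNNGAA was in none of the 11 either, beside 9.38% of all genes and 4 of 12 members not called (33.3%). Among the members called lower, 3 had a window, and LIFR held TGTTTAC on the opposite strand at position 24 from a start (chr5:38557428-38557454, minus strand) and the STAT motif before each of 2 starts, at positions -182 and -165. The forkhead match is shown, since FOXD2 is a forkhead factor.
LIFR: ggcatacagcGTAAACAtcttcagacc
A match is a description of these letters, not evidence that a factor binds there.

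In the IL-1 family the antagonist and the shared receptor chain rose, while the ligand that was measured best fell. IL1RN encodes the IL-1 receptor antagonist, which occupies the receptor without recruiting the accessory chain (chromosome 2, 113107214 to 113134016, plus strand, GENCODE 29 on GRCh38). It had 103 and 95 counts in the FOXD2 libraries, against 0 and 4 counts in the empty vector libraries. The gene was thus near 0 in empty vector cells and clearly present in both FOXD2 libraries. Its level was 6.55 ± 0.0888 CPM in FOXD2 cells and 0.132 ± 0.187 CPM in empty vector cells (SD, n = 2 each), and edgeR put the log2 fold change at 5.49 (SE 0.45, adjusted p = 1.1e-14). The size of that rise rests on the few counts of empty vector replicate 2. Without empty vector replicate 1 the log2 fold change was 4.59, and without replicate 2, against 0 counts, the fitted value was 9.59 and is no bound.

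IL1RAP encodes the accessory chain shared by the receptors for IL-1, IL-33 and IL-36 (chromosome 3, 190514051 to 190659750, plus strand). Its level was 19.5 and 25.8 CPM in FOXD2 cells, against 3.79 and 3.11 CPM in empty vector cells. Both FOXD2 libraries lay far above both empty vector libraries, a 6.56-fold difference (log2 fold change 2.71, SE 0.17, edgeR adjusted p = 2.2e-18). IL1R1, the chain that binds IL-1, had 14.5 and 16.9 CPM in FOXD2 cells and 13.9 and 13 CPM in empty vector cells and did not pass the test (0.22, adjusted p = 0.16). The TPM (the authors' transcript level per length) of IL1RAP relative to IL1R1 was therefore 1.52 and 1.68 in FOXD2 libraries and 0.358 and 0.309 in empty vector libraries. The accessory chain was the scarcer transcript of the pair in empty vector cells and the more abundant one in FOXD2 cells. The other partners of IL1RAP, IL1RL1 for IL-33 and IL1RL2 for IL-36, had no count in any library.

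IL18 encodes a precursor cytokine of epithelial cells that caspase-1 can mature, and it had the highest mean TPM of all members. Its level was 48.8 and 51.4 TPM in FOXD2 cells, against 67.9 and 70.4 TPM in empty vector cells. Both FOXD2 libraries were lower, and the gene fell by 0.49 on the log2 scale (SE 0.09, edgeR adjusted p = 3e-06). Its soluble inhibitor IL18BP had a log2 fold change of 0.41 and missed the threshold (adjusted p = 0.069), except with library totals alone (0.48, adjusted p = 0.037). The binding chain IL18R1 stood at 1.85 ± 0.20 CPM in FOXD2 cells and 1.52 ± 0.0822 CPM in empty vector cells (SD, n = 2 each; edgeR adjusted p = 0.51), and the signalling chain IL18RAP had 2 counts in all, both in empty vector replicate 2.

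**Figure D2:**
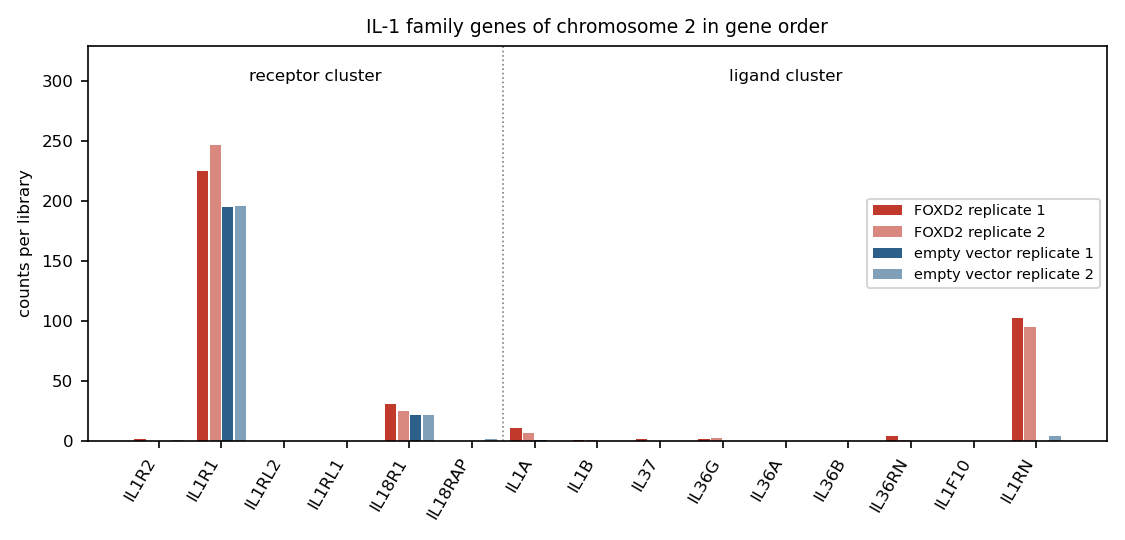
Counts per library (vertical axis) of the 15 IL-1 family genes of chromosome 2 in gene order (horizontal axis), with FOXD2 libraries in red and empty vector libraries in blue. IL1R1 holds 195 to 247 counts in every library, and at the far end of the ligand cluster IL1RN holds 103 and 95 counts in FOXD2 libraries and 0 and 4 in empty vector libraries.

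The neighbours of IL1RN in the ligand cluster of chromosome 2 were much lower. IL1A, an alarmin that acts through IL1R1, had 11 and 7 counts in FOXD2 libraries, against 1 and 0 in empty vector libraries, a ratio of 17.3 with an exact 95% interval of 2.74 to 722 from counting alone. IL36G had 2 and 3 counts and the antagonist IL36RN 4 and 1 counts in FOXD2 libraries, against none in empty vector libraries. Set against 3 counts over the empty vector group each ratio was 1.6, which takes the FOXD2 counts as exact. Neither passed when every gene with at least 1 count was tested (edgeR adjusted p = 0.19 and 0.2). IL1B and IL37 had at most 2 counts in a library, and IL36A, IL36B and IL1F10 had none.

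Among the receptors of IL-17 cytokines, 3 chains that give ligand specificity rose 2.06- to 2.38-fold, while the shared chain did not pass the test. IL17RB, the receptor for IL-25 (chromosome 3, 53846580 to 53865800, plus strand), had 35.3 and 38.4 CPM in FOXD2 cells, against 15.4 and 15.6 CPM in empty vector cells. IL17RE, the receptor for IL-17C, had 15.9 and 15.2 CPM in FOXD2 cells, against 6.22 and 6.89 CPM in empty vector cells. IL17RC, which pairs with IL17RA to bind IL-17A and IL-17F, had 14.6 and 14.9 CPM in FOXD2 cells, against 7.44 and 6.89 CPM in empty vector cells. The groups did not overlap for any of the 3 genes, which held for 76.1% of all genes tested. Their log2 fold changes were 1.25 (SE 0.11), 1.25 (SE 0.15) and 1.04 (SE 0.15), with edgeR adjusted p-values of 5.9e-15, 5.4e-10 and 4.7e-08. IL17RE and IL17RC are neighbours on the plus strand of chromosome 3 (9902612 to 9916402 and 9917074 to 9933630), and no annotated exon is shared between them.

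IL17RA, the chain shared by these receptors, had 32.6 and 32.1 CPM in FOXD2 cells, against 34.8 and 37.2 CPM in empty vector cells (log2 fold change -0.15, edgeR adjusted p = 0.16). The sign of that value turned on log2 TPM, where it was 0.18 or 0.20 and did not pass. Relative to IL17RA, the TPM of IL17RB was 3.32 and 4.52 in FOXD2 libraries and 1.97 and 1.78 in empty vector libraries, and that of IL17RE was 1.91 and 2.21 in FOXD2 libraries and 0.944 and 1.02 in empty vector libraries. Both ratios were thus higher in either FOXD2 library than in any empty vector library. Such separation was not particular to these chains. The ratio of OSMR to IL6ST was lower in both FOXD2 libraries (1.71 and 1.5) than in the empty vector libraries (1.79 and 2.51). That of IL6R to IL6ST overlapped (0.496 and 0.283 in FOXD2 libraries, 0.209 and 0.37 in empty vector libraries), as did that of IL27RA to IL6ST. IL17RD, which is known as an inhibitor of FGF receptor signalling, fell (17.9 ± 2.56 CPM in FOXD2 cells and 24.3 ± 1.61 CPM in empty vector cells, SD, n = 2 each; log2 fold change -0.44, edgeR adjusted p = 0.0013), although not on log2 TPM (adjusted p = 0.17 or 0.18). None of the 6 IL-17 type ligands was tested, and the highest, IL17B, had 3 and 6 counts in FOXD2 libraries and 1 and 3 in empty vector libraries.

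**Figure D3:**
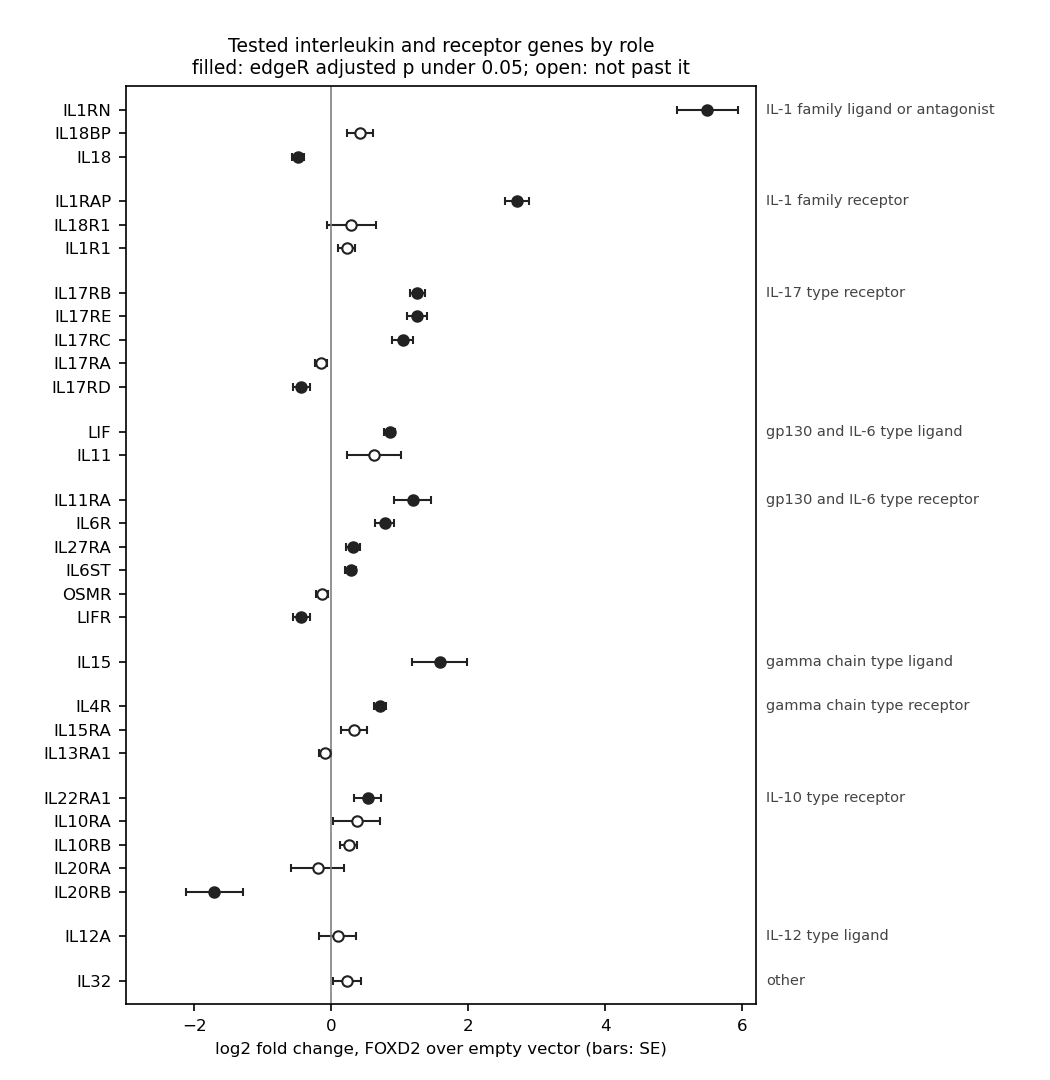
Log2 fold change of FOXD2 over empty vector (horizontal axis, bars show the SE) of the 30 tested members grouped by role, with filled points past an edgeR adjusted p of 0.05 and open points not past it. IL1RN and IL1RAP lie farthest to the right, and IL20RB at -1.71 is the lowest.

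Among the members that signal through gp130, the chain encoded by IL6ST, the ligand LIF and the alpha chains IL11RA and IL6R rose, and LIFR fell. LIF, a cytokine known for its action on stem cells and on epithelium, had the second highest mean TPM of all members. Its level was 38.4 and 39.6 TPM in FOXD2 cells, against 16.25 and 17.01 TPM in empty vector cells. Both FOXD2 libraries were higher, and the counts rose by 0.85 on the log2 scale (SE 0.08, edgeR adjusted p = 6.2e-14). The rise was larger with limma on log2 TPM, at 1.18 or 1.23, so its size depends on the measure. Its receptor chain LIFR went the other way, with 16.8 and 16.7 CPM in FOXD2 cells, against 26.1 and 19.5 CPM in empty vector cells (-0.44, SE 0.12, adjusted p = 0.0025). That fall rests on empty vector replicate 1, without which the log2 fold change was -0.22 (adjusted p = 0.27), and it also missed the threshold on log2 TPM (adjusted p = 0.28 or 0.30).

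IL11RA, the alpha chain for IL-11, had 4.56 and 5.33 CPM in FOXD2 cells, against 1.57 and 2.72 CPM in empty vector cells (log2 fold change 1.19, SE 0.27, edgeR adjusted p = 0.00023). Without empty vector replicate 1 its log2 fold change was 0.86, and without replicate 2 it was 1.65. IL6R, the alpha chain for IL-6, averaged 18.2 ± 2.53 CPM in FOXD2 cells and 10.6 ± 0.886 CPM in empty vector cells (SD, n = 2 each; log2 fold change 0.78, SE 0.14, edgeR adjusted p = 2.7e-06, and 0.059 or 0.062 on log2 TPM). Neither pair of groups overlapped, as for 76.1% of all genes tested. IL6ST itself (0.28, adjusted p = 0.0041) and IL27RA (0.31, adjusted p = 0.0071), a partner of gp130 for IL-27, rose slightly. The IL6ST call ended without FOXD2 replicate 2 (adjusted p = 0.097), without empty vector replicate 2 (0.17) and on log2 TPM (0.51), and the IL27RA call ended without empty vector replicate 2 (0.21), with DESeq2 (0.089) and on log2 TPM (0.076).

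OSMR, the oncostatin M receptor, had the third highest mean TPM of all members. Its level was 16.9 and 20.6 TPM in FOXD2 cells, against 22.3 and 20.1 TPM in empty vector cells, and the groups overlapped. Its log2 fold change in counts was -0.14 (edgeR adjusted p = 0.20), which was -0.32 (adjusted p = 0.00092) without FOXD2 replicate 2 and 0.02 without replicate 1. IL31RA, which pairs with OSMR to bind IL-31, was not tested and had 8 and 6 counts in FOXD2 libraries, against 1 and 1 in empty vector libraries. The ratio was 6.74 (exact 95% interval 1.55 to 61.1, counting error only). When every gene with at least 1 count was tested, IL31RA missed the threshold (edgeR adjusted p = 0.054). Of the ligands for these receptors, IL11 had 1.59 ± 0.257 CPM in FOXD2 cells and 1.03 ± 0.056 CPM in empty vector cells (SD, n = 2 each; edgeR adjusted p = 0.18, and 0.022 or 0.031 on log2 TPM), OSM had 1 count in all, and IL6, IL27 and IL31 had none.

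**Figure D4:**
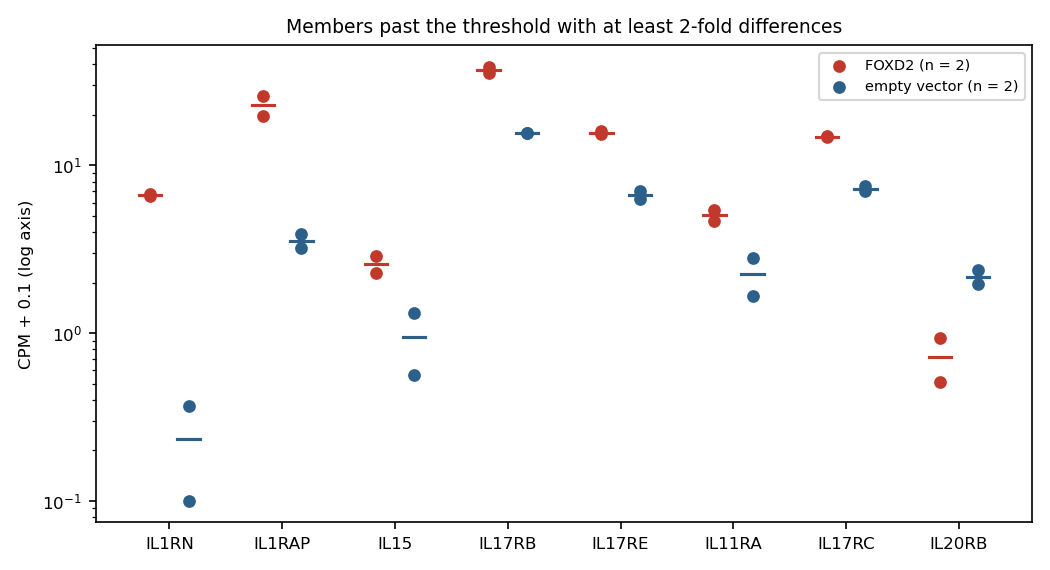
CPM plus 0.1 on a log axis (vertical) of the 8 members past the threshold with at least 2-fold differences (horizontal), with each library as a point and the group mean as a line, FOXD2 in red and empty vector in blue. The groups do not overlap for any of the 8, which holds for 76.1% of all genes tested. Only IL20RB is lower in FOXD2 libraries.

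Of the cytokines of T cells and their receptors, few chains were measurable. IL15 encodes a cytokine that epithelial and myeloid cells present on IL15RA to lymphocytes. It had 34 and 41 counts in FOXD2 libraries, against 17 and 7 in empty vector libraries, which is 2.18 and 2.80 CPM in FOXD2 cells and 1.22 and 0.464 CPM in empty vector cells. The groups did not overlap, as for 76.1% of all genes tested, and IL15 rose by 1.58 on the log2 scale (SE 0.40, edgeR adjusted p = 0.00068). The value was 2.40 without empty vector replicate 1 and 1.03 (adjusted p = 0.045) without replicate 2, and on log2 TPM the call ended (0.46, adjusted p = 0.10, and 0.86, adjusted p = 0.12). IL15RA had a log2 fold change of 0.33 and did not pass (adjusted p = 0.15).

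IL4R, the alpha chain for IL-4 and IL-13, had 49.0 and 49.8 CPM in FOXD2 cells, against 30.5 and 30.1 CPM in empty vector cells. It rose by 0.71 on the log2 scale (SE 0.09, edgeR adjusted p = 1.2e-09), and the 2 libraries of each group lay close together. Its partner in non-blood cells, IL13RA1, had 44.1 ± 3.52 CPM in FOXD2 cells and 47.1 ± 1.09 CPM in empty vector cells (SD, n = 2 each; edgeR adjusted p = 0.36). The TPM of IL4R relative to IL13RA1 was 1.62 and 1.52 in FOXD2 libraries and 0.909 and 0.861 in empty vector libraries. IL2RG, the common gamma chain with which IL4R pairs in lymphocytes, had 1 count in all, and the decoy receptor IL13RA2 had none.

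Among receptors of the IL-10 type, 1 chain rose and 1 fell. IL20RB, a chain of the receptors for IL-19, IL-20 and IL-24 (chromosome 3, 136946230 to 137011085, plus strand), had 13 and 6 counts in FOXD2 libraries, against 32 and 28 in empty vector libraries. Its level was 0.835 and 0.410 CPM in FOXD2 cells and 2.29 and 1.85 CPM in empty vector cells, low in every library and lower in both FOXD2 libraries. The log2 fold change was -1.71 (SE 0.42, edgeR adjusted p = 0.00051), and -2.31 without FOXD2 replicate 1 and -1.30 without replicate 2. IL22RA1, which binds IL-22, rose slightly, with 7.15 ± 0.0628 CPM in FOXD2 cells and 4.96 ± 0.464 CPM in empty vector cells (SD, n = 2 each; log2 fold change 0.53, edgeR adjusted p = 0.020). That call ended with DESeq2 (adjusted p = 0.17), on log2 TPM (0.089 or 0.097) and without FOXD2 replicate 1 (0.072) or empty vector replicate 2 (0.16), and, at 0.050, without FOXD2 replicate 2. The shared chain IL10RB (0.25, adjusted p = 0.073) missed the threshold, which it passed without FOXD2 replicate 2 (0.014) and with library totals alone (0.027). IL10RA (0.37, adjusted p = 0.37) and IL20RA (-0.20, adjusted p = 0.69) did not pass, and the value of IL20RA was 0.06 or 0.10 on log2 TPM.

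**Figure D5:**
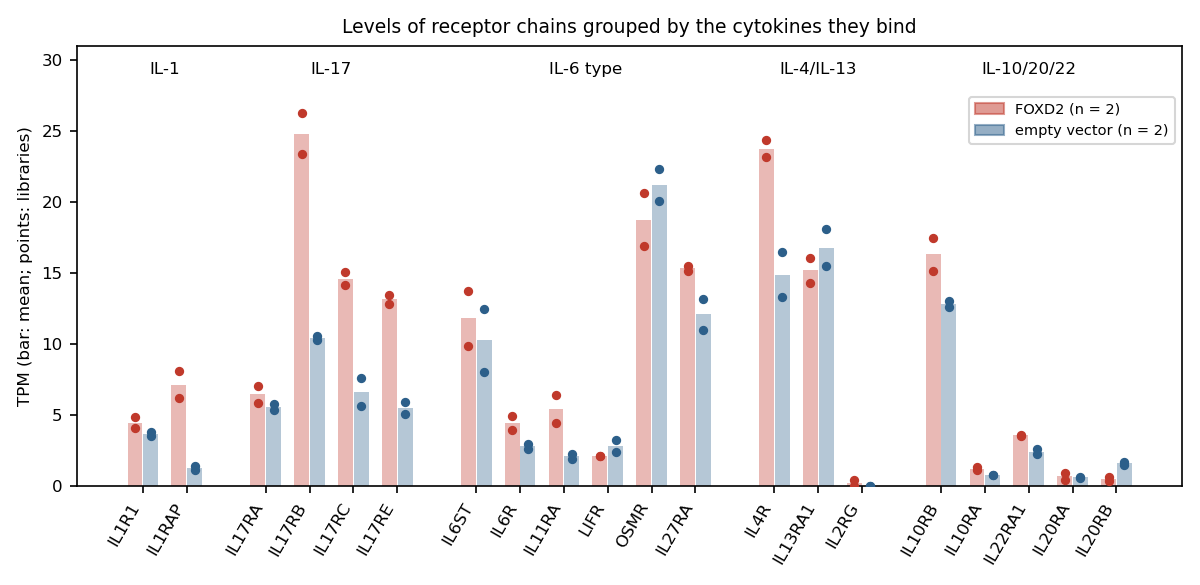
TPM (vertical axis; bars are group means, points are libraries) of receptor chains grouped by the cytokines they bind (horizontal axis), with FOXD2 in red and empty vector in blue. IL17RB, IL17RC, IL17RE, IL4R and IL1RAP are higher in both FOXD2 libraries. So are IL1R1, IL17RA, IL6R, IL11RA, IL27RA, IL10RB, IL10RA and IL22RA1, while LIFR and IL20RB are lower in both. The other chains overlap, and IL2RG is near 0. On CPM, the groups did not overlap for 76.1% of all genes tested.

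The other tested members did not pass. IL12A, the p35 subunit of IL-12, had 3.29 ± 0.565 CPM in FOXD2 cells and 3.08 ± 0.514 CPM in empty vector cells (SD, n = 2 each; edgeR adjusted p = 0.81), its partner IL12B had at most 2 counts in a library, and IL23A, the other subunit that pairs with IL12B, at most 4. IL32, an intracellular inflammatory mediator, had 7.45 and 5.33 CPM in FOXD2 cells and 5.51 and 5.43 CPM in empty vector cells (0.23, adjusted p = 0.35), and its value was -0.04 without FOXD2 replicate 1.

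Of the 59 members that were not tested, 14 had at least 3 counts in some library. When every gene with at least 1 count was tested, 61 members entered, of which 16 were higher and 7 lower, beside 15.9% higher and 16.3% lower among the 24046 genes of that fit. The 6 that were added were IL1A, IL10, IL19, IL1RAPL1, IL21R and IL7. IL10, an anti-inflammatory cytokine, had 9 and 1 counts in FOXD2 libraries and none in empty vector libraries, and IL19, a relative of it, had 4 and 6 counts and none. Set against 3 counts over the empty vector group the ratio of each was 3.21, which takes the FOXD2 counts as exact. Both passed in that fit (edgeR adjusted p = 0.020 for each), but 9 of the 10 counts of IL10 came from 1 library. IL1A had an adjusted p of 0.0038 in that fit.

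The other 3 were lower in FOXD2 cells. IL1RAPL1, a synaptic relative of the IL-1 receptor accessory chain, had 1 and 0 counts in FOXD2 libraries, against 14 and 8 in empty vector libraries, a ratio of 0.0438 (exact 95% interval 0.00106 to 0.271; edgeR adjusted p = 0.00026). IL21R had 0 and 1 counts in FOXD2 libraries, against 9 and 5 in empty vector libraries (ratio 0.0688, interval 0.00163 to 0.452; adjusted p = 0.013). IL7, a lymphocyte growth factor, had 2 and 0 counts in FOXD2 libraries, against 5 and 9 in empty vector libraries (ratio 0.138, interval 0.0152 to 0.599; adjusted p = 0.039). None of the 3 exceeded 14 counts in a library. Of the remaining members with at least 3 counts in a library, IL4I1 had 2 and 2 counts in FOXD2 libraries and 6 and 4 in empty vector libraries, IL9R had 4 and 5 counts in FOXD2 libraries and 1 and 2 in empty vector libraries, and IL17D had 2 and 1 counts in FOXD2 libraries and 1 and 3 in empty vector libraries.

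Of 15 cytokines and chains that pair with the members but carry other names, 9 were tested, 6 rose and 0 fell (median log2 fold change 0.85). This is 66.7% higher, beside 27.2% higher and 26.4% lower among all genes tested, the shares against which the lists that follow are also set. CSF2RA, the alpha chain of the GM-CSF receptor, rose by 1.89 (SE 0.29), to 4.81 ± 2.06 TPM in FOXD2 cells, against 1.02 ± 0.332 TPM in empty vector cells (SD, n = 2 each), although its partner CSF2RB had no count. CLCF1 (1.19, SE 0.15), a cytokine of the IL-6 type, and CTF1 (1.08, SE 0.29), which encodes cardiotrophin, rose as well. SIGIRR, an inhibitory receptor of the IL-1 family, rose by 0.85 (SE 0.10), to 62.3 ± 3.8 TPM in FOXD2 cells, against 34.7 ± 7.3 TPM in empty vector cells (SD, n = 2 each). The edgeR adjusted p-values of these 4 genes were at most 0.0013. Another that rose, chosen for mention after its value was seen, was TSLP (1.65, edgeR adjusted p = 0.0095), a cytokine of barrier epithelium that lay below 1 TPM on average. TSLP had 16 and 14 counts in FOXD2 libraries, against 5 and 4 in empty vector libraries. It thus passed the filter on low counts only through the group where it was high, a route that favours genes that differ. The 6 that rose and the share of 66.7% include it.

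Of 15 adaptors downstream of the IL-1 and Toll receptors 14 were tested, 8 rose and 1 fell (median log2 fold change 0.28). This is 57.1% higher and 7.14% lower, beside 27.2% and 26.4% of all genes. MYD88, the adaptor that receptors of this family share, had 21.3 ± 0.834 TPM in FOXD2 cells and 11.2 ± 0.0919 TPM in empty vector cells (SD, n = 2 each), and rose by 0.91 on the log2 scale (SE 0.10, edgeR adjusted p = 1e-11). The ubiquitin ligases TRAF6 (0.66) and PELI1 (0.55), the kinase IRAK4 (0.49) and TOLLIP (0.59), an inhibitor of the pathway, also rose. The gene that fell, named after its value was seen, was the kinase gene MAP3K7 (-0.24, edgeR adjusted p = 0.0071). On log2 TPM only 3 genes of the list were higher. Of 7 IL-17 receptor adaptors and effectors 3 rose and 0 fell (median 0.25), which is 42.9% higher, beside 27.2% of all genes. The 3 were NFKBIZ (0.70), a nuclear cofactor of NF-kB, ZC3H12A (0.41), an RNase that degrades cytokine mRNAs, and the adaptor gene TRAF3IP2 (0.31). The list held 0 genes that were higher without empty vector replicate 1 or with DESeq2, and 1 without FOXD2 replicate 1 or on log2 TPM.

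Of the 4 Janus kinases, TYK2, which serves gp130 and the IL-10 type receptors, had 98.7 ± 1.01 TPM in FOXD2 cells and 55.1 ± 0.46 TPM in empty vector cells (SD, n = 2 each; log2 fold change 0.65, SE 0.08, edgeR adjusted p = 3.1e-10). JAK3 (0.65, adjusted p = 0.025) rose at 1.85 ± 0.453 TPM in FOXD2 cells and 1.12 ± 0.191 TPM in empty vector cells, and JAK1 (-0.19, adjusted p = 0.017) fell slightly. Only 1 kinase was higher with DESeq2, on log2 TPM, or without FOXD2 replicate 2 or empty vector replicate 2. None was lower with DESeq2, on log2 TPM, with library totals, with a replicate block, or without FOXD2 replicate 1 or empty vector replicate 1. Of 17 inhibitors 6 rose and 4 fell (median 0.11), which is 35.3% higher and 23.5% lower and near the 27.2% and 26.4% of all genes, with PIAS3 (0.91), an inhibitor of STAT3, the tyrosine phosphatase PTPN1 (0.55), SOCS5 (0.43) and SOCS2 (0.35) higher and SOCS7 (-0.32) lower. The other 3 that fell, named after their values were seen, were the phosphatase genes PTPN11 (-0.32) and PTPN2 (-0.27) and the adaptor gene SH2B3 (-0.30). SOCS3, the usual feedback inhibitor of gp130, had a log2 fold change of -0.13 and did not pass (edgeR adjusted p = 0.43), and it was named after its value was seen.

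Of 18 genes for the maturation and release of IL-1 and IL-18, 11 were tested, 5 rose and 2 fell (median log2 fold change 0.33). This is 45.5% higher and 18.2% lower, beside 27.2% and 26.4% of all genes. S100A13, which takes part in the release of IL-1 alpha, had 217 ± 14.6 TPM in FOXD2 cells and 97.7 ± 6.65 TPM in empty vector cells (SD, n = 2 each; log2 fold change 1.11, SE 0.09, edgeR adjusted p = 1.6e-16). CASP4 (1.10), the caspase of the noncanonical inflammasome, the sensors NLRP1 (1.05) and CARD8 (0.57), and GSDMD (0.42), which forms the pore, rose as well. The genes that fell, named after their values were seen, were NINJ1 (-0.38), which acts in membrane rupture, and the protease gene ADAM10 (-0.29). The other 7 genes, among them CASP1, a protease that can mature IL-18, its adaptor PYCARD and the sensor NLRP3, had no count in any library. Without FOXD2 replicate 1 the genes that fell were 4 and without empty vector replicate 2 they were 1.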

How the data were processed

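PolyA RNA of 4 libraries was analysed from the authors' gene tables. Per the submitters' processing notes, reads were handled with STAR (2.7.2b) and RSEM (1.2.31) on GRCh38 (hg38); the annotation release and the strand setting of the counting are not given in the sources used here. The deposited tables hold, per the file headers, RSEM expected counts, which share reads of similar genes by estimate, the authors' TPM, and the posterior SD of each count, which was at most 5.58 reads for a tested member (IL10RB) and at most 0.74 reads for the others. Of the 30 tested members, 16 share exon bases with another annotated gene, so their counts are uncertain to that extent. The shared bases lie on the opposite strand for 11 and on the same strand for 7, with IL11RA and IL20RB in both groups. The 7 also include IL1RAP. Of 60683 identifiers 60370 had a symbol and 58496 were in GENCODE 29; 95 symbols fitted the naming rule, and 6 pseudogenes were left out.

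Expected counts were rounded and compared with edgeR 4.0.16 (R 4.3.3) by its quasi-likelihood test (filterByExpr, TMM, robust fit, all 4 libraries, both directions), with Benjamini-Hochberg adjustment over the 14470 genes tested and a threshold of 0.05. Fold changes are log2 ratios of FOXD2 to empty vector. CPM uses TMM-scaled library sizes. The biological coefficient of variation was 4.99%, so small differences passed. Replicates were not alike within sampling noise (chi-square per degree of freedom 3.91 for FOXD2 and 2.52 for empty vector libraries). Members too low for the test are given as counts, with an exact 95% interval of the ratio. Where a group had no count, the ratio against 3 counts is given, which takes the other group's counts as exact and is no lower bound. Both cover counting error only, since reads that carry no molecular identifier may repeat 1 molecule. Alternatives used DESeq2 1.42.0, limma 3.58.1 and the settings named in the closing section, and the fit was tested on simulated data. Every tested member is named; those with at least 2-fold differences and the 3 of highest mean TPM are given in every library. Of each pathway list the up to 5 genes past the threshold with the largest change and a mean of at least 1 TPM are named, except 1 gene that is not reported here. The members and lists were chosen with earlier results of these data known. Chromatin assays named in the design text were not analysed here.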

Additional observations from a re-analysis of the deposited data

How the results depend on the processing

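Of 420 values of the 30 members under 14 alternatives, 383 kept their direction and their side of the threshold, and 10 of the 17 calls held under every alternative: IL1RN, IL1RAP, IL17RB, IL17RE, IL17RC, IL11RA, IL4R, LIF, IL18 and IL20RB. The direction turned for IL20RA (0.06 and 0.10) and IL17RA (0.18 and 0.20) with limma on log2 TPM plus 1 and plus 0.1, for IL12A without 1 library (-0.09 to 0.27), for OSMR (-0.32 to 0.02) and for IL32 (-0.04 to 0.45); apart from OSMR without FOXD2 replicate 2, none of these was called. The cause was not tested. With genes of at least 1 count, 7 members were lower, because more members entered. IL1RN, IL15 and IL20RB, which the main filter let in through the group where each was high, had log2 fold changes of 5.48, 1.56 and -1.72 there. With limma on log2 TPM plus 1 or 0.1, 2 members were lower, and 2442 and 2436 genes in all. In these fits 3 IL-1 adaptors were higher and 0 lower, 1 IL-17 adaptor and 1 Janus kinase higher, 0 Janus kinases, 2 inhibitors and 1 maturation gene lower. With DESeq2, 0 IL-17 adaptors, 1 Janus kinase and 3 inhibitors were higher and 0 Janus kinases lower. With library totals alone, which move the median of all genes to 0.074, 0 IL-1 adaptors and 0 Janus kinases were lower.

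Leaving out 1 library, with the lone sample of an arm taken to vary as the other arm does, gave 10 to 13 members higher and 3 to 5 lower, and 3214 to 3605 genes higher and 3017 to 3612 lower in all. The ranges were 0 to 1 lower for IL-1 adaptors, 0 to 2 higher and 0 to 1 lower for IL-17 adaptors, 1 to 2 higher and 0 to 1 lower for Janus kinases, and 1 to 4 lower for maturation genes. Same-numbered replicates did not deviate together (r = -0.104 across genes), and nothing in the labels pairs them. With the replicate block 13 members were higher and 4 lower, 3680 and 3494 genes in all, and 0 Janus kinases were lower. With the numbers crossed, an alternative chosen after seeing the data, 13 and 4 members and 4148 and 4089 genes were called. The 31 untested members with a count are known only within wide counting intervals, the 28 at 0 only by the limit that 3 counts give, and the size of the IL1RN rise rests on 4 counts.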
